A study of Homo sapiens with 6 samples.

Results

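Keratins, claudins and the proteins of desmosomes and tight junctions were followed in OVCAR3 cells exposed to THZ531. The genes were chosen by symbol, as every keratin (KRT) and claudin (CLDN) whose symbol ends in its number, the desmocollins DSC1 to DSC3, the desmogleins DSG1 to DSG4, the zonula occludens scaffolds (TJP), occludin (OCLN), desmoplakin (DSP), plakoglobin (JUP) and the plakophilins PKP1 to PKP3. This leaves out KRT6A, KRT6B and KRT6C, which are given at the end. Of the 47577 loci in the table, 89 belong to this set, and 15 of them were listed at 0 in all libraries. Expression was taken as 10 or more in 3 or more of the 6 libraries, which 50 of the 89 genes and 17568 of all loci reached.

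OVCAR3 cells were established from an ovarian carcinoma of the high-grade serous kind. THZ531 binds covalently to CDK12 and CDK13, kinases that act on transcribing RNA polymerase II, and blocks them. Polyadenylated RNA was sequenced from 3 libraries of cells given the solvent DMSO and from 3 libraries of cells given 200 nM THZ531 for 6 h, each group described as biological repeats of a single line. The sample titles and the treatment characteristic name THZ531, while their treatment protocol gives THZ1, a related compound, at that dose. Libraries held between 53054048 and 70986130 reads counted on genes, and the values below are these counts divided by a size factor for each library. Markers of serous ovarian carcinoma were all detected (9 of 9 tested), FOLR1 at a low level (103 ± 11.1 in DMSO, SD, n = 3). From DMSO to THZ531 PAX8 went from 11272 ± 545 to 1241 ± 121 and WFDC2 from 3353 ± 525 to 5316 ± 179. The others did not pass the thresholds given below. Of the 5 leukocyte markers 2 were listed at 0 in every library, and their summed value was between 139 and 177 in DMSO and between 138 and 155 in THZ531. Of the 6 fibroblast markers DCN and LUM were at or under 3.19 in every library, while the summed value of the list was between 1659 and 1914 in DMSO and between 3176 and 3517 in THZ531, most of it from COL1A1 and COL3A1. The sum of the 3 endothelial markers was between 162 and 199 in DMSO and between 213 and 299 in THZ531. The part of the fibroblast and endothelial markers in the results below was not tested. In bulk RNA, fewer cells of a kind and less RNA per cell cannot be told apart.

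Keratins form the intermediate filaments of epithelial cells and assemble from pairs of an acidic type I and a basic type II chain. KRT8 pairs with KRT18, and together with KRT7 and KRT19 they are the keratins of simple epithelia, whereas KRT5 and KRT14 mark basal cells and KRT16 and KRT17 are induced in stressed and regenerating epidermis. The filaments are anchored at desmosomes, where the cadherins DSC and DSG bind the plaque proteins JUP, PKP and DSP, while claudins and occludin seal the tight junction and are tied to actin by the zonula occludens scaffolds.

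Sequence upstream of the transcription start is shown for 3 claudins whose mRNA changed most among those with a RefSeq promoter, CLDN4 and CLDN12, which rose, and CLDN15, which fell. Each run holds the 250 bases before the start, read 5′ to 3′ on the strand of the gene, from RefSeq on GRCh38.p14. CLDN4 is at chr7:73830746-73830995 (plus strand), CLDN12 at chr7:90403211-90403460 (plus strand) and CLDN15 at chr7:101237803-101238052 (minus strand), and capitals mark the AP-1 type motif TGANTCA.
CLDN4: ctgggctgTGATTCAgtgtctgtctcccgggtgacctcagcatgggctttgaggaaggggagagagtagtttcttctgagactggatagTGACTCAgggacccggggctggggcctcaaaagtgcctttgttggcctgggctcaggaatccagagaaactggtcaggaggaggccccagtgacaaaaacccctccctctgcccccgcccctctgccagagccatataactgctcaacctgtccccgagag
CLDN12: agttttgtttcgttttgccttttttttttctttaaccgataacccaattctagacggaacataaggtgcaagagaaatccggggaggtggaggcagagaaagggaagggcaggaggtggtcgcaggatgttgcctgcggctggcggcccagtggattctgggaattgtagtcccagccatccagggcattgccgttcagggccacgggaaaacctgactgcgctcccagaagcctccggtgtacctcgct
CLDN15: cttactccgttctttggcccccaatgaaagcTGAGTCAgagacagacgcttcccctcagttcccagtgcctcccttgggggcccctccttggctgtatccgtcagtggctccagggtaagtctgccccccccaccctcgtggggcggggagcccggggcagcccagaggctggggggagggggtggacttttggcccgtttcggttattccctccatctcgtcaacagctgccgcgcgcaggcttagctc
The motif reads the same on both strands. Counting the base before the start as the first upstream base, it began at -242 and -161 in CLDN4 and at -219 in CLDN15, and it had no match in the CLDN12 window. Among 35116 RefSeq promoters of this length 6.57% held it, against 3 of the 42 promoters found for 30 of the 50 genes, those of CLDN4, CLDN15 and CLDN16. The TATA letters TATAAA, searched on both strands, were in 10.7% of all promoters and in 2 of the 42, those of KRT10 and KRT3. A match is a run of letters and was not measured as a binding site.

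After THZ531, 12 of the 50 genes rose and 4 fell, and 34 passed neither threshold. Calls needed 1.5-fold or more and an unadjusted p no higher than 0.05 in limma on the log2(value + 1) scale, and of all 17568 loci 15.7% were called higher and 23.9% lower under the same rule. The share of the set was thus 24.0% higher and 8.0% lower. Over the 40 genes with a mean value of at least 100, 10 rose and 3 fell, while 14.4% of the 12345 loci at that level rose and 21.6% fell. The genes that rose were KRT13, KRT15, KRT16, KRT17, KRT32, KRT3, KRT4, CLDN4, CLDN5, CLDN11, CLDN12 and DSC2, and those that fell were KRT79, KRT80, CLDN15 and TJP3. With a Benjamini-Hochberg adjusted p of at most 0.05 at any fold, 32 were higher and 6 lower, beside 34.6% and 34.1% of all loci. The median log2 fold change of the 50 genes was 0.27, and that of all loci was -0.01. With RPL34 scaling these medians were -0.21 and -0.50. The 50 genes ranged from -1.48 to 2.25, the upper end being CLDN5. On the recovered reads edgeR called 11 higher and 4 lower, beside 14.7% and 24.4% of all loci, and DESeq2 12 and 3, beside 15.3% and 23.4%. At 2-fold, limma called 6 higher and 3 lower, beside 7.7% and 15.3%. Except at a mean of at least 100, these counts of higher genes include KRT32 and CLDN5. Their DMSO values were all under 10, and they passed the level minimum through their THZ531 libraries, so that their calls carry no weight.

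**Figure D1:**
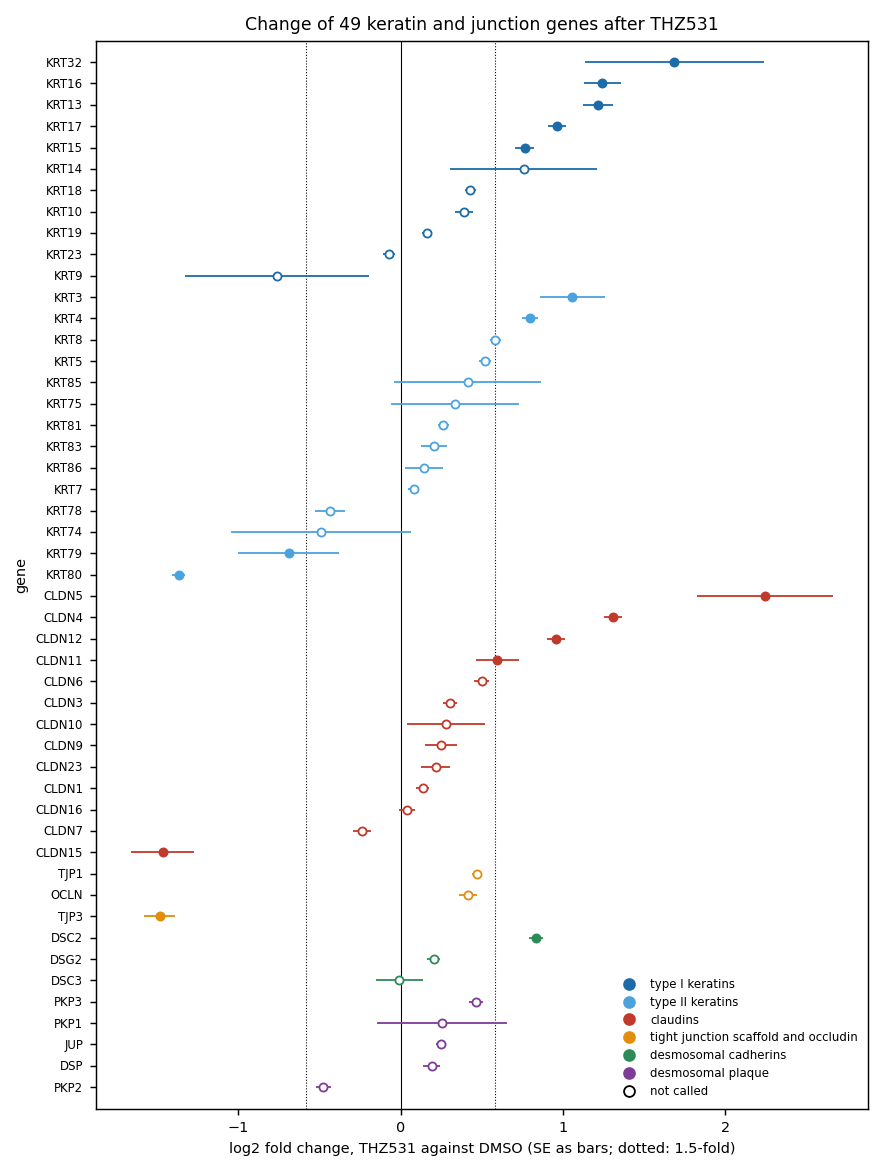
Log2 fold change of 49 of the genes, THZ531 against DMSO (x axis), with the standard error of the limma fit as bars, for 3 libraries a group. Colours give the role of the gene, filled points are genes called at 1.5-fold (dotted lines) and open points are genes not called. The 12 filled points on the right run up to CLDN5 at 2.25, and the 4 on the left end with TJP3 at -1.48. CLDN5 and KRT32 (1.69) entered the test through their THZ531 libraries alone, and the highest of the other filled points is CLDN4 at 1.31.

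Small changes turned direction with the scaling of the libraries. With the libraries set to the same total, which moved the median of all loci by -0.24, 9 of the genes were called higher and 6 lower, beside 9.23% and 32.1% of all loci. Upper-quartile scaling moved the median by 0.12 and gave 16 higher and 3 lower, beside 20.6% and 20.7%. With scaling to the ribosomal protein mRNA RPL34, which moved the median by -0.49, 5 were higher and 8 lower, beside 5.87% and 43.1%. KRT13, KRT16 and CLDN4 were called higher under each of these 4 scalings, and KRT80, CLDN15 and TJP3 were called lower under each. KRT32 and CLDN5 were too, but their DMSO values were all under 10 and they entered the test through their THZ531 libraries, so that their calls under any scaling carry no weight.

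**Figure D2:**
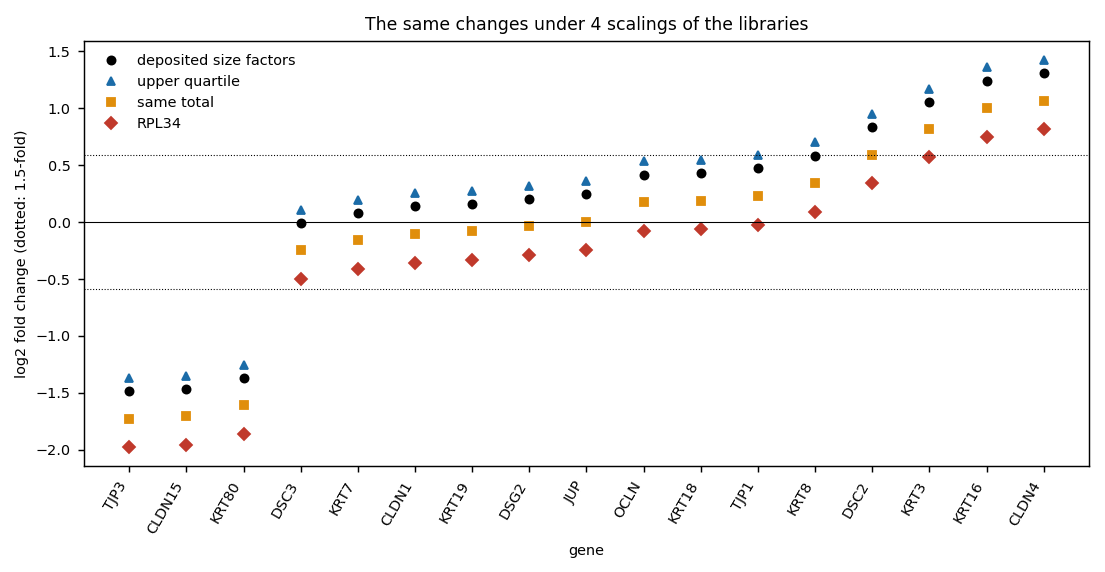
Log2 fold change (y axis) of 17 genes under the deposited size factors, upper-quartile, same-total and RPL34 scaling. Dotted lines mark 1.5-fold. CLDN4 lay between 0.81 and 1.42 and TJP3 between -1.98 and -1.37, while KRT7, KRT19, CLDN1 and DSG2 stood above 0 with the deposited size factors and below 0 after scaling to the same total or to RPL34.

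The keratins of simple epithelia were among the most abundant members of the set, and each was higher in THZ531 by less than 1.5-fold with the deposited size factors. KRT7 and KRT19 were lower after scaling to the same total or to RPL34, and KRT18 after scaling to RPL34. Per kb of the MANE transcript, the mean DMSO level was 86201 for KRT8, 81025 for KRT18, 80191 for KRT7, 60631 for KRT81 and 49052 for KRT19, followed by 20542 for CLDN1. KRT81, a hair keratin, stood among these keratins. The level of KRT8, KRT18 and KRT7 per kb lay close together.

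KRT8, the type II partner of KRT18, had values of 150111, 155448 and 155791 in DMSO and of 232697, 227329 and 231562 in THZ531. Every THZ531 library was above every DMSO library. Limma gave a log2 fold change of 0.58 ± 0.03 (SE) with an adjusted p of 1.8e-10, at a fold of 1.499 just under the threshold. It came to 0.34 with the same total and 0.091 with RPL34 scaling (adjusted p = 0.448, limma), and 0.70 with upper-quartile scaling, where it passed. It also passed without DMSO replicate 2 (0.592), without DMSO replicate 3 (0.594) and without THZ531 replicate 2 (0.594). KRT18 was at 118786, 113818 and 110863 in DMSO and at 152899, 153365 and 156167 in THZ531. Its groups did not overlap either, and the log2 fold change was 0.43 ± 0.03 (adjusted p = 1.15e-08, limma), which turned to -0.064 with RPL34 scaling.

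KRT19, which pairs with KRT7 and KRT8, had 68809, 69424 and 66315 in DMSO and 76421, 74720 and 77624 in THZ531. The groups were close but apart, with a difference in log2 values of 0.16 ± 0.03 (adjusted p = 3.21e-04, limma), and of -0.081 with libraries set to the same total and -0.33 with RPL34 scaling. KRT7, the type II keratin of ducts and glands, had 130929, 133953 and 126048 in DMSO and 135607, 136819 and 141338 in THZ531. The highest DMSO library was just below the lowest THZ531 library. For KRT7 it was 0.08 ± 0.03 (adjusted p = 0.041, limma), -0.16 with the same total and -0.41 with RPL34 scaling.

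Of the 25 type I keratins listed, 11 were reported, 5 of which rose and none of which fell, beside 15.7% and 23.9% of all loci. The 5 include KRT32, which entered the test through its THZ531 libraries alone. The median log2 fold change of 0.76 was that of KRT14, a low gene whose groups overlapped. Under RPL34 scaling the median was 0.27, beside -0.50 for all loci. With RPL34 scaling 3 of the 11 were called higher and 1, KRT9, lower, beside 5.87% and 43.1% of all loci. In limma 0 of the 11 were lower at an unadjusted p under 0.05, and edgeR and DESeq2 called 0 lower. KRT16, a keratin of stressed epidermis at chr17:41609778-41612767 (hg38, as deposited), had 223, 251 and 243 in DMSO and 494, 588 and 629 in THZ531. The lowest THZ531 library was well above the highest DMSO library. It rose by 1.24 ± 0.11 on the log2 scale (adjusted p = 8.31e-08, limma). Between 4.1% and 4.7% of the 100-base stretches of KRT14 and KRT16 occur in each other or in KRT16 pseudogenes, so a small part of their reads could be split among copies.

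The other type I keratins that rose were KRT13, a keratin of stratified mucosa (431 ± 34.8 to 1003 ± 101, SD, n = 3), KRT17 (1922 ± 134 to 3750 ± 76.1) and KRT15, a keratin of basal cells (1048 ± 18.3 to 1781 ± 36.7). KRT17 was not called with RPL34 scaling (log2 fold change 0.47), nor KRT15 with the same total (0.52) or RPL34 scaling (0.27). KRT32, a hair keratin, was far lower, at 6.35, 7.42 and 3.19 in DMSO and 25.2, 13.6 and 21.6 in THZ531. It entered the test through its THZ531 libraries alone, so that it had to differ. KRT14, the partner of KRT5, was barely expressed, at 18.7 ± 6.21 and 34.0 ± 15.7, and its groups overlapped. It was called higher without THZ531 replicate 2 (log2 fold change 1.22), and KRT9, at 23.2 ± 13.6 and 12.8 ± 7.63, was called lower without DMSO replicate 2 (-1.29). KRT10, of differentiated epidermis, went from 3355 ± 211 to 4400 ± 267 and was not called, and KRT23 stood at 7424 ± 144 and 7068 ± 173.

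Of the 23 type II keratins of the set, 14 were reported, with 2 called higher and 2 called lower, beside 15.7% and 23.9% of all loci. Their median log2 fold change was 0.24 (-0.26 with RPL34 scaling, beside -0.50 for all loci). KRT80, a type II keratin of differentiating epithelia at chr12:52168996-52192014, had 12542, 12890 and 12868 in DMSO. In THZ531 it had 4810, 4889 and 5145. All 3 treated libraries were far below the control libraries, and the replicates of each group were close. The log2 fold change of -1.37 ± 0.04 (adjusted p = 1.44e-13, limma) was between -1.86 and -1.25 under the 4 scalings.

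KRT3, known from corneal epithelium, had 69.9, 100.2 and 95.7 in DMSO and 225, 167 and 164 in THZ531. The groups did not overlap, at a low level. Its log2 fold change was 1.06 ± 0.20 (adjusted p = 1.95e-04, limma), and it was 0.57 with RPL34 scaling, under the threshold. KRT4, the mucosal partner of KRT13, rose from 5024 ± 380 to 8718 ± 170, with a log2 fold change of 0.80 that was under the threshold with the same total (0.55) and with RPL34 scaling (0.30). KRT79 fell from 58.1 ± 11.7 to 36.4 ± 11.9 with an unadjusted p of 0.0435 and an adjusted p of 0.0621, and its log2 fold change of -0.69 was not called without DMSO replicate 1 (-0.53), DMSO replicate 3 (-0.75), THZ531 replicate 1 (-0.46) or THZ531 replicate 2 (-0.69). KRT5, the basal type II keratin, was at 19367 ± 669 and 27755 ± 475 with a log2 fold change of 0.52 and was not called. It was called with upper-quartile scaling (0.63) and was 0.026 with RPL34 scaling.

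The deposited locus of KRT81 (minus strand) lies within that of KRT86 (plus strand), and 30.3% and 24.3% of their 100-base stretches are shared with each other or with KRT87P. Whether the authors counted by strand is not given in the sources used here, so it is uncertain which of these genes the values of KRT81 (116958 ± 3276 in DMSO) and KRT86 (388 ± 24.6) come from. KRT8 and KRT18 overlap by 1006 bases on opposite strands.

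The type II genes of the set and KRT18 are on chromosome 12 and the other type I genes on chromosome 17. On chromosome 17, 5 of 10 reported keratins rose and none fell, with a median log2 fold change of 0.76. On chromosome 12, 2 of 15 rose and 2 fell, with a median of 0.26, beside 15.7% and 23.9% of all loci. The 5 include KRT32, whose call carries no weight, and KRT9 on chromosome 17 was called lower with RPL34 scaling. The difference between the chromosomes was not tested.

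**Figure D3:**
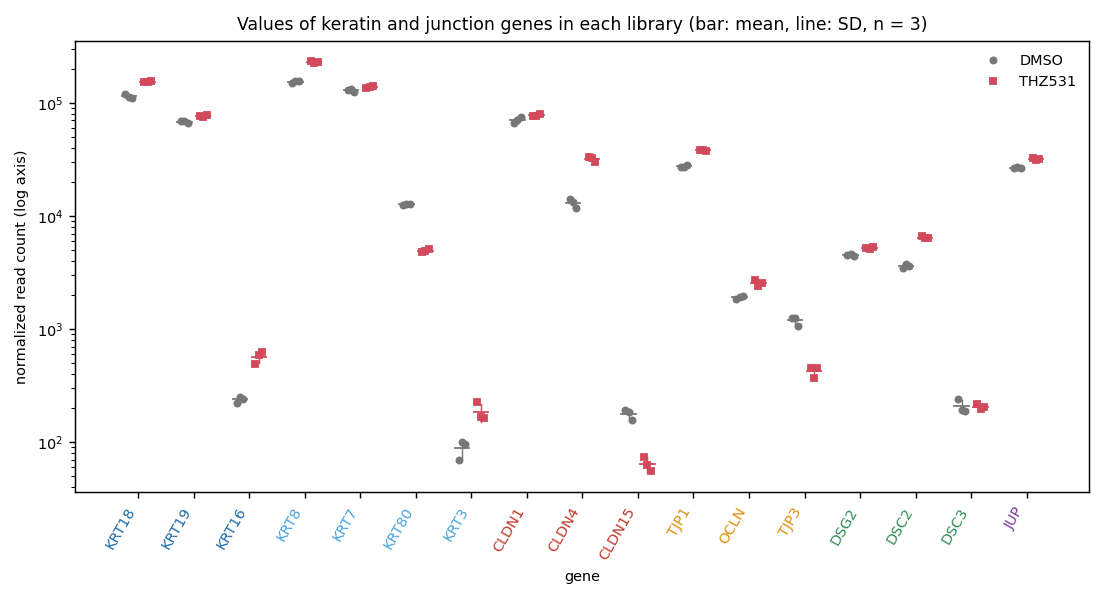
Normalized read count (y axis, log scale) of 17 genes in each of 3 DMSO libraries (grey circles) and 3 THZ531 libraries (red squares), with the mean as a bar and the SD as a line. Gene names are coloured by role. KRT8 reached 230529 on average in THZ531, and KRT80, CLDN15 and TJP3 were lower in every THZ531 library than in any DMSO library.

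Of the 24 claudins listed, 13 were reported, 4 rose and 1 fell, beside 15.7% and 23.9% of all loci. The 4 include CLDN5, which entered the test through its THZ531 libraries alone. The median log2 fold change of the claudins was 0.28 (-0.21 with RPL34 scaling, beside -0.50 for all loci). CLDN1, a barrier claudin of tight junctions and the most abundant of the family, had 66338, 70614 and 75412 in DMSO and 76976, 77042 and 79235 in THZ531. The highest DMSO library came near the lowest THZ531 library. Its log2 fold change of 0.14 ± 0.04 (adjusted p = 0.00706, limma) came to -0.11 with the same total and -0.36 with RPL34 scaling. The deposited locus of CLDN1 lies within that of CLDN16, on the other strand.

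CLDN4, which limits sodium passage and is the receptor of a bacterial enterotoxin together with CLDN3, had 14085, 13218 and 11673 in DMSO. In THZ531 it had 33265, 32743 and 30262. Every treated library held more than any control library by a wide margin. Its log2 fold change was 1.31 ± 0.06 (adjusted p = 1.06e-11, limma), and leaving out any 1 library kept it between 1.23 and 1.37. Its neighbour CLDN3, on the other strand of chromosome 7, went from 9251 ± 499 to 11423 ± 165 and was not called.

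CLDN12, a claudin without the usual scaffold-binding end, rose from 3695 ± 264 to 7183 ± 424, a log2 fold change of 0.96 that was 0.47 and not called with RPL34 scaling. CLDN11, the claudin of myelin and testis, went from 219 ± 33.9 to 330 ± 8.39, a log2 fold change of 0.60 that was 0.53 without DMSO replicate 1, 0.54 without DMSO replicate 2 and 0.58 without THZ531 replicate 3, each under the threshold. The call was also lost with the same total (0.35), RPL34 scaling (0.11), edgeR (0.57) and a pseudocount of 10 (0.58). CLDN5, the endothelial claudin, was at 6.35, 7.42 and 7.98 in DMSO and 39.0, 36.4 and 38.7 in THZ531. Like KRT32 it was tested only because of its THZ531 libraries. The endothelial markers VWF (89.0 ± 28.3 to 144 ± 5.48, called), PECAM1 (63.9 ± 13.8 to 59.3 ± 24.5, not called) and CDH5 (31.8 ± 11.2 to 39.1 ± 28.3, not called) stood beside it, and their part in the value of CLDN5 was not tested.

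CLDN15, a pore-forming claudin of the intestine, had 192, 186 and 158 in DMSO and 74.3, 62.5 and 55.7 in THZ531. The groups were widely apart. CLDN15 fell by 1.47 ± 0.20 on the log2 scale (adjusted p = 5.42e-06, limma), and leaving out any 1 library kept it between -1.58 and -1.37. CLDN7, common in epithelia, stood at 6421 ± 534 and 5438 ± 214 with a log2 fold change of -0.24. CLDN6, an embryonic claudin, stood at 5378 ± 297 and 7600 ± 244 with 0.50. Neither was called with the deposited size factors. CLDN7 was called lower with RPL34 scaling (-0.73). CLDN6 was called higher with upper-quartile scaling (0.62) and was 0.0065 with RPL34 scaling.

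The scaffolds and occludin differed among themselves. TJP1, which links claudins to actin, had 27042, 27342 and 28186 in DMSO and 38152, 38372 and 37886 in THZ531. The groups were apart with little spread, at 0.47 ± 0.03 on the log2 scale (adjusted p = 1.86e-09, limma), which was 0.59 with upper-quartile scaling and -0.022 with RPL34 scaling. The deposited locus of TJP1 spans 555142 bases against 122317 of the MANE transcript, so that it takes in sequence outside that transcript.

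TJP3, another scaffold, at chr19:3708384-3750813, had 1254, 1263 and 1073 in DMSO and 455, 373 and 456 in THZ531. Every THZ531 library lay below every DMSO library, and TJP3 fell by 1.48 ± 0.10 on the log2 scale (adjusted p = 1.26e-09, limma). OCLN had 1853, 1916 and 1968 in DMSO and 2702, 2394 and 2573 in THZ531, with groups apart. Its log2 fold change was 0.42 ± 0.06 (adjusted p = 5.55e-06, limma), and -0.076 with RPL34 scaling.

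Of the 12 desmosome genes, 8 were reported, 1 rose and none fell, beside 15.7% and 23.9% of all loci. Their median log2 fold change was 0.23 (-0.27 with RPL34 scaling, beside -0.50 for all loci). Limma, edgeR and DESeq2 each called 0 lower, and 1 gene, PKP2, was lower at an unadjusted p under 0.05 in limma. DSC2, a desmosomal cadherin of many epithelia, had 3472, 3785 and 3591 in DMSO and 6615, 6361 and 6371 in THZ531. The groups were far apart, with a difference in log2 values of 0.84 ± 0.04 (adjusted p = 1.18e-10, limma), and of 0.34 with RPL34 scaling, which is under the threshold.

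DSG2, its partner cadherin, had 4551, 4625 and 4421 in DMSO and 5258, 5127 and 5285 in THZ531. The groups were apart by a small step, with a difference in log2 values of 0.20 ± 0.04 (adjusted p = 2.92e-04, limma) that came to -0.038 with the same total and -0.29 with RPL34 scaling. DSC3, the cadherin of basal layers, had 239, 195 and 189 in DMSO and 217, 197 and 204 in THZ531. Its groups overlapped, with a difference in log2 values of -0.01 ± 0.14 (adjusted p = 0.967, limma).

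Of the plaque proteins JUP, which is also found in adherens junctions, had 26595, 27354 and 26579 in DMSO and 32253, 31416 and 31945 in THZ531. All THZ531 libraries were above all DMSO libraries, and the log2 fold change was 0.25 ± 0.03 (adjusted p = 3.28e-06, limma), or -0.25 with RPL34 scaling. DSP, the link to keratin filaments, stood at 8649 ± 516 and 9882 ± 759, with overlapping groups. PKP3 (8357 ± 436 and 11526 ± 347) and PKP2 (3443 ± 144 and 2475 ± 50.4), both of which cluster desmosomal cadherins, had log2 fold changes of 0.46 and -0.48, and neither was called with the deposited size factors.

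Ratios of 2 genes within a library do not depend on the scaling. The pairs were chosen, with their values known, as partners, neighbours or relatives. The ratio of CLDN4 to CLDN3 was 1.47, 1.40 and 1.34 in DMSO and 2.86, 2.89 and 2.67 in THZ531, so that it was higher in every treated library. The ratio of TJP3 to TJP1 was 0.0464, 0.0462 and 0.0381 in DMSO and 0.0119, 0.00972 and 0.0120 in THZ531. The ratio of KRT80 to KRT7 was 0.0980 ± 0.0035 in DMSO and 0.0359 ± 0.00048 in THZ531 (SD, n = 3). Both of the latter were lower in every treated library.

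The ratio of DSC2 to DSG2 was 0.798 ± 0.030 in DMSO and 1.23 ± 0.027 in THZ531, and that of PKP2 to PKP3 was 0.412 ± 0.016 and 0.215 ± 0.0087. The keratin partners moved less apart. KRT8 to KRT18 was 1.26, 1.37 and 1.41 in DMSO and 1.52, 1.48 and 1.48 in THZ531, and KRT4 to KRT13 was 11.7 ± 0.83 and 8.74 ± 0.83. In each of the 8 ratios computed, the groups did not overlap, with p = 0.1 in a two-sided exact permutation test. That is the smallest p that 3 libraries against 3 allow, and it remains 0.1 after Benjamini-Hochberg adjustment over the 8. Because the pairs were picked with their values known, neither the lack of overlap nor the p carries weight as a test.

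**Figure D4:**
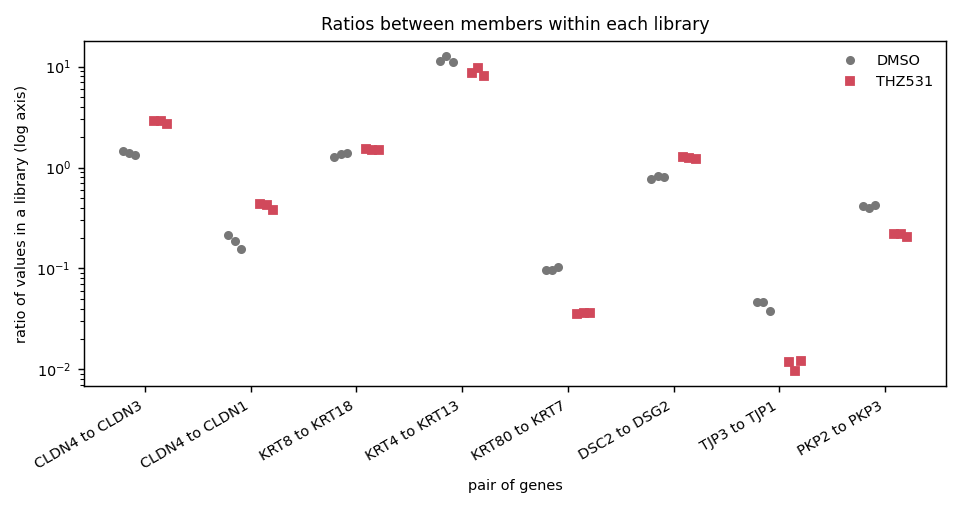
Ratio of the values of 2 genes (y axis, log scale) in each DMSO library (grey circles) and each THZ531 library (red squares) for 8 pairs. CLDN4 to CLDN3 went from 1.40 to 2.81 on average and TJP3 to TJP1 from 0.0435 to 0.0112.

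The summed value of all members was between 1.47% and 1.53% of a library in DMSO and between 1.60% and 1.63% in THZ531. Keratins of the set, which does not hold KRT6A, made up 1.10% to 1.16% in DMSO and 1.20% to 1.23% in THZ531. These sums rest mainly on KRT8, KRT7, KRT81, KRT18, KRT19 and CLDN1.

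The members differ in the span of their loci, with a median of 10823 bases against 27951 for all 15278 tested loci with a symbol. Spearman's rho between the span and the log2 fold change was -0.30 over the 50 members, -0.46 over the 25 keratins, -0.04 over the 13 claudins and -0.06 over all loci with a symbol. The spans are those of the deposited loci, which can exceed the MANE transcript. That of KRT8 is 52674 bases against 7886, and that of KRT81 is 34716 against 5622. The points share the libraries, and the keratins share 2 chromosomal clusters. With the mean DMSO level in place of the span, rho was -0.06 over the members and 0.18 over all loci.

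**Figure D5:**
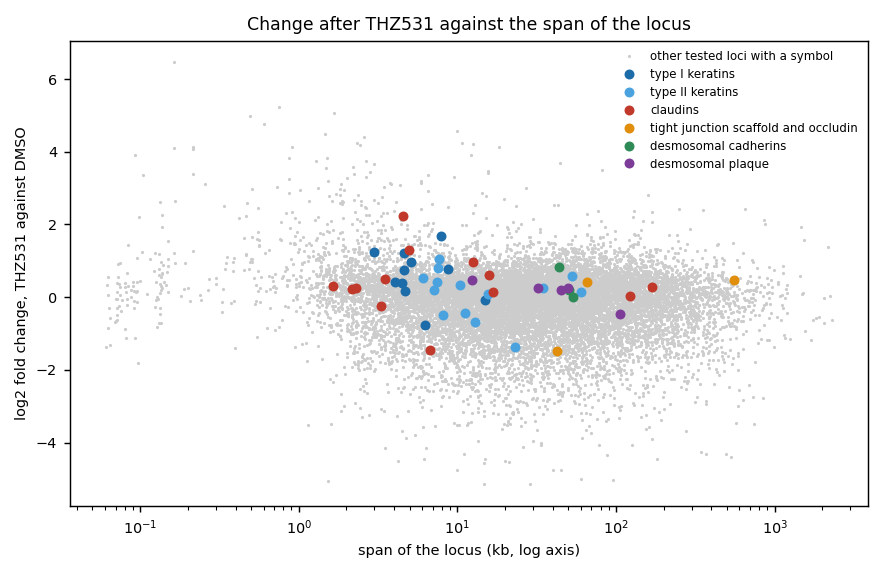
Log2 fold change, THZ531 against DMSO (y axis) against the span of the locus in kb (x axis, log scale) for 49 members, coloured by role, and for the other tested loci with a symbol in grey. The keratins and claudins lie mostly at short spans, and the desmosome genes, TJP1 and OCLN at longer ones.

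Inside members lie 19 loci without a symbol, of which 3 passed the level minimum. None was called by limma, edgeR or DESeq2, and 0 of the 3 had an unadjusted p under 0.05 in limma, the lowest being 0.0688 for a locus inside KRT23. Of all 2290 tested loci without a symbol 31.1% were called higher and 25.3% lower.

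Genes that work beside the members were taken from 5 lists of junction, polarity, filament and epithelial regulator genes. Of the 57 genes, 56 were tested, 10 rose and 7 fell, with a median log2 fold change of 0.23, beside 15.7% and 23.9% of all loci. Among 16 tight junction and polarity genes 2 rose and 2 fell, among 11 adherens junction genes 1 rose and 1 fell, and among 10 hemidesmosome and linker genes none rose and 2 fell. Of these 10 genes 5 were higher at an unadjusted p under 0.05 in limma, and edgeR and DESeq2 called 0 higher. Of 7 other intermediate filament genes 1 rose, the lamin gene LMNB1.

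Of the 12 epithelial transcription and splicing regulators 6 rose and 2 fell, beside the same 15.7% and 23.9% of all loci, with a median log2 fold change of 0.45. The count depended on tool and scaling, with 4 higher in edgeR and 5 in DESeq2, beside 14.7% and 15.3% of all loci. With the same total 2 were higher, beside 9.23%. With RPL34 scaling 1, EHF, was higher and 4 were lower, beside 5.87% and 43.1%. The median was then -0.043, beside -0.50 for all loci. EHF, an epithelial ETS factor, had 814, 749 and 847 in DMSO and 1688, 1785 and 1713 in THZ531, so that it rose by 1.11 ± 0.07 on the log2 scale (adjusted p = 5.1e-10, limma). GRHL1, a grainyhead factor that controls desmosomal cadherin genes, had 1308, 1165 and 1191 in DMSO and 2322, 2193 and 2171 in THZ531 (0.87 ± 0.06, adjusted p = 3.04e-09, limma). ELF3, another epithelial ETS factor, had 5630, 5537 and 4790 in DMSO and 9344, 9337 and 8956 in THZ531 (0.80 ± 0.05, adjusted p = 1.81e-09, limma). The groups were apart for all 3, and with RPL34 scaling GRHL1 (0.38) and ELF3 (0.30) were under the threshold, ELF3 also with the same total (0.55).

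ESRP2, an epithelial splicing regulator, had 4744, 5028 and 5158 in DMSO and 1689, 1575 and 1768 in THZ531, so that it fell by 1.57 ± 0.05 on the log2 scale (adjusted p = 1.08e-12, limma). MARVELD2 (tricellulin), which sits where 3 cells meet, had 1743, 1763 and 1814 in DMSO and 636, 835 and 738 in THZ531 (-1.28 ± 0.08, adjusted p = 1.52e-09, limma). PRKCZ, a polarity kinase, had 2759, 2849 and 3050 in DMSO and 1472, 1465 and 1537 in THZ531 (-0.95 ± 0.05, adjusted p = 3.11e-10, limma). All 3 were lower in every THZ531 library than in any DMSO library.

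Near the level minimum, the third-highest value was 10.1 for KRT74, which was reported, and 9.28 for DSC1, which was not.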

How the data were processed

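OVCAR3 cells treated with DMSO or THZ531 (3 libraries each) were analysed from 1 table. The deposited values are a signal, read counts that the authors mapped to hg38 with STAR, counted on FAST DB genes with featureCounts and divided by a DESeq2 size factor per library. They are not corrected for length. The submitters' processing notes name STAR 2.7.5a. Whole reads were recovered for 100% of the values, within a tolerance of 0.01, and served edgeR 4.0.16 and DESeq2 1.42.0 as alternatives.

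The 17568 loci at 10 or more in 3 or more libraries were tested on log2(value + 1) with limma 3.58.1 (trended variance, R 4.3.3), which understates folds of low genes. Calls needed 1.5-fold or more and an unadjusted p no higher than 0.05. Adjusted p-values (Benjamini-Hochberg) are over all loci. Ratios were tested with scipy 1.17.1. The code was tested on simulated data.

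Values are given in every library for the most abundant gene of each role group, for its largest called rise and fall at a mean of at least 100, for each gene of groups of at most 4 and for KRT7, KRT8, KRT18 and KRT19. The values of 1 member are not reported here, though counts include it. The members, lists and rules were chosen with earlier results of these data known. Exon and transcript data came from GENCODE v44. Alternatives were other pseudocounts, level minimums, scalings, thresholds and tools, the replicate number as a block, and leaving out each library. The labels call the libraries biological repeats but do not give their cultures, so p-values measure the spread between these libraries.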

Additional observations from a re-analysis of the deposited data

How the results depend on the processing

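Of the 50 genes, 12 were called higher and 4 lower. Leaving out 1 library gave 9 to 13 higher and 3 to 5 lower, beside 13.6% to 16.0% and 22.0% to 24.3% of all loci. Keratins were then 1 to 3 lower (2 with all libraries) and claudins 2 to 4 higher, with 2 without THZ531 replicate 3, where CLDN11 missed the fold and CLDN5, like KRT32, the level minimum. With RPL34 scaling 5 members were higher and 8 lower, keratins 3 and 4, claudins 2 and 2, desmosome genes 0 and 1, and partner genes 2 and 16. Of all loci 5.87% were then higher and 43.1% lower. KRT32 and CLDN5, whose calls carry no weight, are among the 5. At a fold of 2, 6 members were higher, keratins were 4 higher and 1 lower, claudins 2 higher, desmosome genes 0 higher, and partner genes 2 higher and 2 lower. Of all loci 7.7% were higher and 15.3% lower at that fold. KRT32 and CLDN5 are among the 6 as well. With the same total, 1 desmosome gene was lower, and partner genes were 3 higher and 11 lower, beside 9.23% and 32.1% of all loci. Keratins were 1 lower, without KRT79, with DESeq2, the adjusted p, limma without a trend, no minimum, a pseudocount of 10 and upper-quartile scaling. Between 18.2% and 23.6% of all loci were lower in these settings.

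The log2 fold change reversed with the same total for CLDN1 (-0.11), DSG2 (-0.038), KRT19 (-0.081) and KRT7 (-0.16). It reversed with RPL34 scaling for CLDN1 (-0.36), DSG2 (-0.29), JUP (-0.25), KRT18 (-0.064), KRT19 (-0.33), KRT7 (-0.41), OCLN (-0.076) and TJP1 (-0.022). DSC3, near 0, was 0.11 with upper-quartile scaling. It was 0.10 without DMSO replicate 1 and 0.02 without THZ531 replicate 2. With 1 library left out it ranged from -0.070 to 0.10, and the cause of that was not tested. The reversals with another scaling, that of DSC3 included, follow from the scalings, which move all but low loci alike. The replicate numbers did not pair the libraries (correlation of deviations 0.002, 0.019 and -0.039), and the replicate block left keratins 1 lower, without KRT79, and changed no other member's call. At values near 10 counting error limits the precision.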

Other observations

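Keratin genes that the selection by symbol left out were measured too, and were looked at after the members. KRT6A, the type II keratin that pairs with KRT16 and KRT17, had 24442, 24611 and 24708 in DMSO and 35019, 35436 and 39200 in THZ531, with a log2 fold change of 0.57 ± 0.04 that was just under the threshold, and between 0.08 and 0.69 over the alternatives. KRT6B (262 ± 41.9 to 375 ± 35.4) and KRT6C (50.4 ± 5.31 to 72.6 ± 8.24, SD, n = 3) were not called either, and reads of the 3 KRT6 copies may be split among them.

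Of the keratin-associated proteins of hair, KRTAP2-3 had 688, 676 and 918 in DMSO and 2625, 2833 and 3061 in THZ531. It rose by 1.91 ± 0.10 on the log2 scale (adjusted p = 7.55e-11, limma), between 1.42 and 2.05 over the alternatives. KRTAP3-1 was at 3.18, 4.64 and 0 in DMSO and at 73.0, 95.5 and 66.0 in THZ531, and it passed the level minimum through its THZ531 libraries alone, so that its call carries no weight. Both genes lie in the type I keratin cluster of chromosome 17. These genes were singled out after their values were seen.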
